A study of Homo sapiens with 10 samples.

Results

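The FLAG-ZMYND8 peaks described here are those that crowd into single genes. A peak belonged to the set when its midpoint lay in the body of a protein-coding gene, from its annotated start to its end, that held at least 15 FLAG-ZMYND8 midpoints. This rule selected 8085 of the 63690 FLAG-ZMYND8 peaks, 12.7% of that list, in the bodies of 364 of 20098 protein-coding genes on chromosomes 1 to 22 and X. The densely bound bodies, as they are called in what follows, were 1.81% of protein-coding genes. The name refers to the number of midpoints in a body and not to their number per 10 kb. The genes were thus chosen by their number of FLAG-ZMYND8 peaks, and counts and densities of these peaks in them are given as a description with no test.

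The study mapped ZMYND8 on chromatin of HEK293, an established human embryonic kidney cell line, by ChIP-seq, which sequences the DNA recovered with a protein from crosslinked chromatin. The series holds 10 samples, and the peak lists used here are 1 for FLAG-ZMYND8 and 1 for ZMYND8, with no list per replicate. For the FLAG-ZMYND8 list, Flp-In T-REx HEK293 cells with an inducible full-length 3xFLAG-ZMYND8 transgene received 10 nM doxycycline, so the tagged protein was overexpressed, and anti-FLAG was used on 2 replicates. For the ZMYND8 list, an antibody to ZMYND8 itself was used on 2 replicates, and the labels describe cells with tagged WT protein or a bromodomain mutant of it without saying which. The antibody therefore differs between the lists, no doxycycline is given for the ZMYND8 list, and the transgene may differ too. The parts of these in any difference cannot be told apart. The lists hold no read counts, the depth is unknown, and 95% Wilson intervals given below cover counting error of peaks or genes only. Peaks of 1 gene are not replicates, and no difference below could be set against a spread between samples.

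ZMYND8 is a chromatin reader. Its PHD finger, bromodomain and PWWP domain sit side by side and together contact acetylated histone H3 tails and DNA, and its MYND domain binds partner proteins. It is known as a partner of the NuRD corepressor complex and is found at promoters and enhancers. Enhancers often lie within introns, so peaks inside a long gene may mark elements of that gene or of a neighbour, and position alone does not tell which.

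To show what such peaks look like in sequence, 6 are printed, 1 each from the 3 gene bodies with the most FLAG-ZMYND8 midpoints per 10 kb (CIRBP, BMF and the unnamed gene ENSG00000273049, which overlaps HOXC4 and HOXC6) and from the 3 with the most midpoints (GSE1, GMDS and AUTS2). Only peaks of at most 300 bases that touched no untranslated exon part were considered. Of those that overlapped a ZMYND8 peak the one farthest from a gene start was taken, and where none overlapped, the widest. All 6 touch no annotated exon, and the CIRBP peak alone lies within 3 kb of a gene start. They are the hg19 reference on the plus strand, 5′ to 3′, and capitals mark CG dinucleotides, the sites of DNA methylation.
CIRBP, chr19:1268780-1269050, no ZMYND8 overlap: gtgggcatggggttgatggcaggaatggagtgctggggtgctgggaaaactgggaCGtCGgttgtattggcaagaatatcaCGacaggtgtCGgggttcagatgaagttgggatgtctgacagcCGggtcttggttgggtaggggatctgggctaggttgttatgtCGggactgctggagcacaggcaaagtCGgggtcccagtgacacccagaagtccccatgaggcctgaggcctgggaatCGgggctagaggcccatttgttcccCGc
BMF, chr15:40390790-40390956, ZMYND8 overlap: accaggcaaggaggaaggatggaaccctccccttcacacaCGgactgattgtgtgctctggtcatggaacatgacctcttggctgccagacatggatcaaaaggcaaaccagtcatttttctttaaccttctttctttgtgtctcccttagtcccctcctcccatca
ENSG00000273049, chr12:54419901-54420197, ZMYND8 overlap: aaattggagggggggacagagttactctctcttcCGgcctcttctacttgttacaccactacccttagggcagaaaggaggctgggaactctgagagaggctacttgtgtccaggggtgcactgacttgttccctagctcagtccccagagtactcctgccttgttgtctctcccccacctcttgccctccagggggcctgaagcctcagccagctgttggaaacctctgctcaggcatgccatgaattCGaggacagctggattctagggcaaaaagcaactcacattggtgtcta
GSE1, chr16:85590257-85590423, ZMYND8 overlap: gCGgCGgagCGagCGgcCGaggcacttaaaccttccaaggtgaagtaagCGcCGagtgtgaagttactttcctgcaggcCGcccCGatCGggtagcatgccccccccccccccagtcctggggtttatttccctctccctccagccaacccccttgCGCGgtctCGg
GMDS, chr6:1821492-1821740, ZMYND8 overlap: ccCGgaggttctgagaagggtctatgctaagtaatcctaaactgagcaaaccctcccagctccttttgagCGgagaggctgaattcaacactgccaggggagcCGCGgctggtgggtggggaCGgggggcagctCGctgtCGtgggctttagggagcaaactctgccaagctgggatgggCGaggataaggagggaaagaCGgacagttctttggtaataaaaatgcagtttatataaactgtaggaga
AUTS2, chr7:70167621-70167903, no ZMYND8 overlap: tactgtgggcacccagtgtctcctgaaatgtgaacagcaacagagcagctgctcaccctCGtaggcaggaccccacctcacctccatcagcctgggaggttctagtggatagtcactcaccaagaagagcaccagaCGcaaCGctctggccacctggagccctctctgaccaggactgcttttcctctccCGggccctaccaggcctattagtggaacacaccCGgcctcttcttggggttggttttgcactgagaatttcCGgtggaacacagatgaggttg

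The 6 sequences differed widely in their content of CG. The GSE1 peak held 13 CG dinucleotides in 167 bp and had a GC content of 65.3%, although it lay 387.2 kb into the gene and 26837 bp from the nearest gene start. The ZMYND8 peak over it covered positions 85590155 to 85590512. The BMF peak had the same width of 167 bp but 1 CG and a GC content of 49.7%, and the ZMYND8 peak over it was 663 bp wide. The GMDS peak, 211466 bp from any gene start, held 9 CG in 249 bp, and the peaks of CIRBP, AUTS2 and ENSG00000273049 held 9, 6 and 2.

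Densely bound bodies were long. Their median length was 205.2 kb, with quartiles of 121.6 and 348.8 kb and a range from 15.5 to 1553.1 kb, against a median of 27.3 kb over all protein-coding genes and of 56.3 kb over the 5321 genes with 3 to 14 FLAG-ZMYND8 midpoints. A fixed count favours long genes, and the share of genes that reached 15 midpoints rose from 0.113% of the genes up to 50 kb to 14.1% of the 512 genes over 400 kb. Not every long gene was bound, since 25% of the genes over 400 kb held no FLAG-ZMYND8 midpoint at all. The bodies held a median of 20 midpoints, with quartiles of 16 and 25 and a maximum of 134, or a median of 1.05 per 10 kb with a range from 0.128 to 10.3. Genes with 3 to 14 midpoints had a median of 0.859 per 10 kb, an upper quartile of 1.85 and a maximum of 15.7. In the densely bound bodies the upper quartile was 1.76, and the median over all protein-coding genes was 0.263. Among the 364 genes, Spearman's rho between length and number of midpoints was 0.241 and Pearson's r was 0.258, with overlapping bodies sharing peaks. The minimum of 15 narrows the range of counts, and over all protein-coding genes rho was 0.432.

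**Figure D1:**
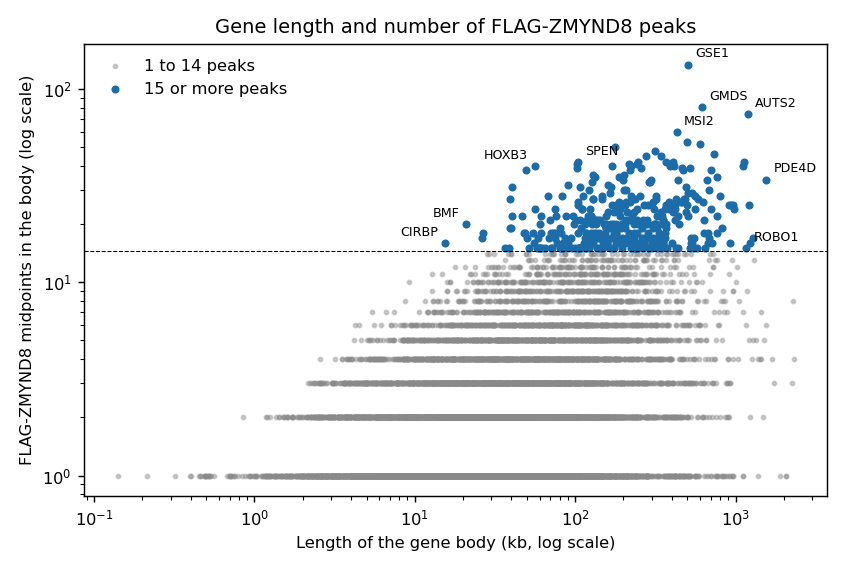
Number of FLAG-ZMYND8 peak midpoints in each protein-coding gene body against its length in kb, both on log scales, with 1 point per gene that holds a midpoint. The 364 genes at 15 or more, above the dashed line, run from CIRBP at 15.5 kb to PDE4D at 1553.1 kb, and GSE1 stands alone at 134 midpoints.

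Merged where they overlap, the 364 bodies formed 350 loci that covered 98.6 Mb, 7.57% of the length of protein-coding bodies. FLAG-ZMYND8 midpoints lay at 0.82 per 10 kb there and at 0.287 per 10 kb in the other bodies, a ratio of 2.85 that the choice of genes sets in part. ZMYND8 midpoints, which the choice did not use, lay at 0.126 per 10 kb in the densely bound bodies and at 0.0708 in the others, a ratio of 1.79. The 1246 ZMYND8 peaks in these bodies were 8.26% of the 15086 in that list.

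The rule placed 56 genes at exactly 15 midpoints and left 53 outside at exactly 14. Just inside, the genes with the most midpoints per 10 kb were HOXD3, a homeobox gene, at 4.11, MXRA7 at 3.9 and ETV4, an ETS-family transcription factor, at 2.9. Just outside were the RNA-binding protein DAZAP1 at 4.98, the heme transporter SLC48A1 at 4.86 and SMAD7, an inhibitor of TGF-beta signalling, at 4.5. Median lengths on the 2 sides of the threshold were 143.1 and 146.8 kb, and ZMYND8 midpoints lay in 48 of the 56 bodies inside and in 47 of the 53 outside.

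Ranked by number of midpoints, GSE1 came first. GSE1, which encodes a protein found in CoREST-type deacetylase complexes, is on chromosome 16 from 85203131 to 85709810, and its 506.7 kb held 134 FLAG-ZMYND8 and 15 ZMYND8 midpoints. Of the 134 peaks, 120 lay more than 3 kb from any gene start, 75 had the minimum width of 167 bp and the widest spanned 2474 bp. The peaks ran along the whole gene, with 13 in the first 10% of the body, 10 in the last 10% and no gap over 19 kb. GMDS, which encodes an enzyme of GDP-fucose synthesis, held 81 FLAG-ZMYND8 and 20 ZMYND8 midpoints in 621.8 kb. In GMDS the peaks leaned to the 3′ end, with 20 in the last 10% and 4 in the first. AUTS2, a neurodevelopmental gene whose product is found in Polycomb complexes, held 74 FLAG-ZMYND8 midpoints in 1195.2 kb but only 3 ZMYND8 midpoints.

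The next genes by number of midpoints held between 45 and 60. MSI2, an RNA-binding Musashi protein, held 60 FLAG-ZMYND8 and 9 ZMYND8 midpoints, with 10 FLAG-ZMYND8 midpoints in 1 stretch of 10 kb. RERE, a corepressor of the atrophin family, held 53 and 9, and NFIA, a nuclear factor I protein, held 52 and 8. CTBP2, a corepressor that binds short peptide motifs, held 50 and 5 in a body of 176.9 kb, the shortest of these genes, so its 2.83 midpoints per 10 kb were the most among them. IGF1R, the receptor of insulin-like growth factor 1, held 48 and 6, and PTPRG, a receptor tyrosine phosphatase, held 46 and 5. JARID2, a subunit of Polycomb repressive complex 2, held 45 and 3.

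**Figure D2:**
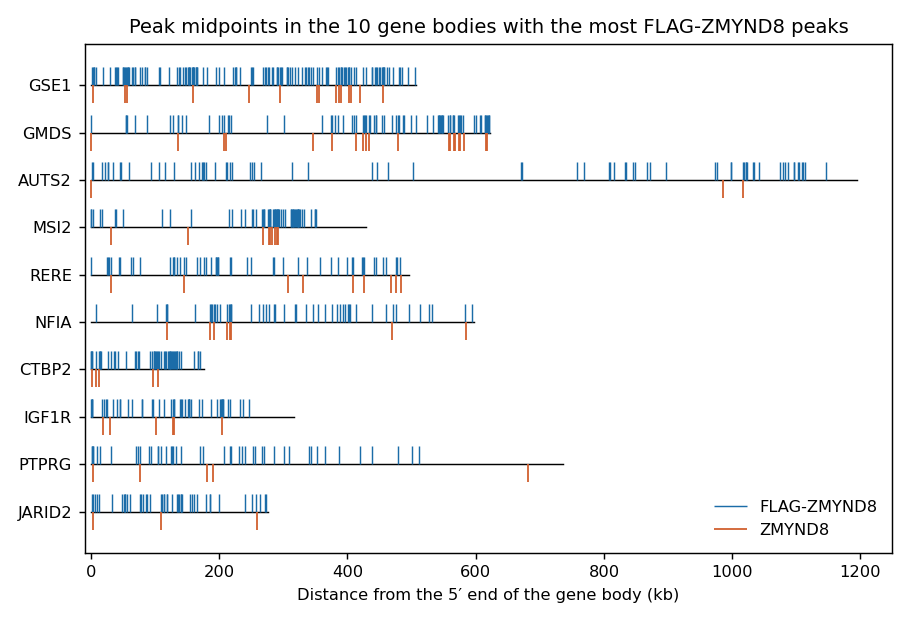
Peak midpoints along the 10 gene bodies with the most FLAG-ZMYND8 midpoints (ties by symbol), in kb from the 5′ end, with FLAG-ZMYND8 ticks above each line and ZMYND8 ticks below. GSE1 is filled from end to end, GMDS is densest towards its 3′ end, and AUTS2 has 74 ticks above its line and 3 below.

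Ranked by density, short genes and HOX genes led. CIRBP, which encodes a cold-inducible RNA-binding protein, held 16 midpoints in 15.5 kb, or 10.3 per 10 kb, and 3 ZMYND8 midpoints. BMF, a BH3-only gene that promotes apoptosis, held 20 in 21 kb, or 9.52 per 10 kb, and 12 of the 20 lay within 1 stretch of 10 kb, the most of any of the 364 genes. These are also the 2 shortest bodies of the set, followed by HOXB7 at 26.3 kb. ENSG00000273049 and the HOXC6 and HOXC4 bodies that it overlaps followed at 7.75, 7.71 and 6.91 per 10 kb. The 3 bodies share peaks and held 50 distinct FLAG-ZMYND8 and 9 distinct ZMYND8 midpoints in all, so they are 1 locus and not 3 cases. HOXB3 held 40 midpoints, 7.14 per 10 kb, and HOXB7 held 17, 6.45 per 10 kb. These 2 bodies are neighbours on chromosome 17, from 46626232 to 46682274 and from 46684594 to 46710934. HOX genes encode homeodomain proteins that set position along the body axis, and HOXA3 and HOXD3 stood next at 4.74 and 4.11 per 10 kb, named after their values were seen. SREBF1, a transcription factor of lipid synthesis, held 6.77 per 10 kb, EEIG1 5.44, and SLC7A5, which encodes a leucine transporter, 4.81 per 10 kb. Peaks more than 3 kb from any gene start were 6 of 16 in CIRBP, 12 of 38 in ENSG00000273049 and 12 of 31 in HOXC6. They were 6 of 17 in HOXB7 and 20 of 40 in HOXB3. BMF had 14 of 20, HOXC4 19 of 27, SREBF1 13 of 18, EEIG1 21 of 22 and SLC7A5 17 of 19. Over the whole set, 16.6% of peaks lay within 3 kb of a gene start.

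**Figure D3:**
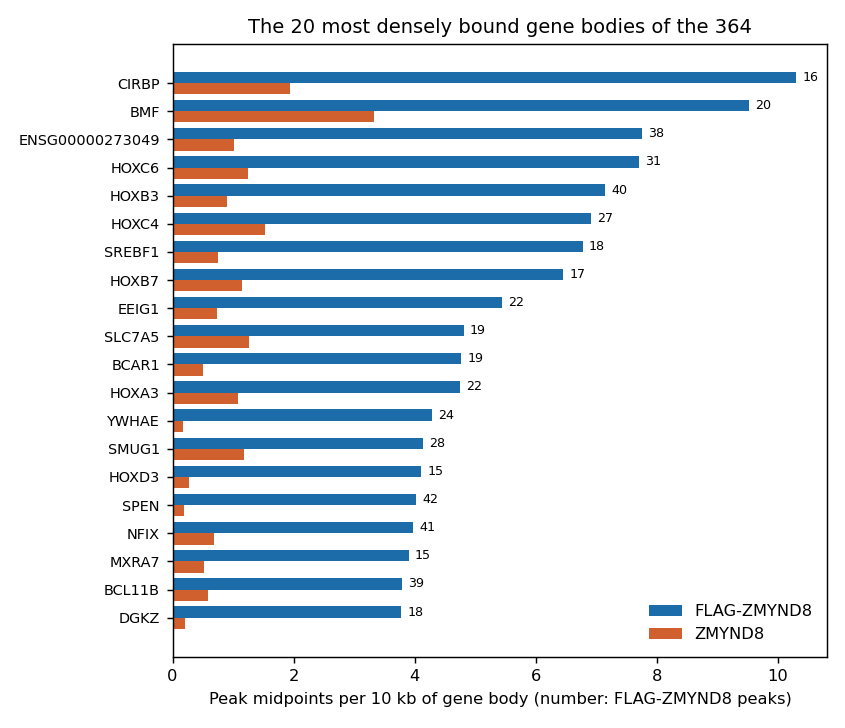
FLAG-ZMYND8 (upper bar) and ZMYND8 (lower bar) peak midpoints per 10 kb of gene body for the 20 densest of the 364 bodies, with the number of FLAG-ZMYND8 midpoints printed beside each bar. CIRBP leads at 10.3 per 10 kb, BMF has the most ZMYND8 midpoints per 10 kb at 3.33, and every FLAG-ZMYND8 bar is longer than the ZMYND8 bar below it.

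At the other end of the ranking lay very long genes. PDE4D, a cAMP phosphodiesterase gene of 1553.1 kb, held 34 midpoints, or 0.219 per 10 kb. TBC1D5, of 1287.7 kb, held 17, and KAZN, of 1225.3 kb, held 16. KAZN held 8 ZMYND8 midpoints, and none of its FLAG-ZMYND8 peaks overlapped one of them. The same lack of overlap was seen in 91 of the 364 genes, among them SYNJ2 with 6 ZMYND8 midpoints and FOXK2 with 5.

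Most peaks of the densely bound bodies lay in introns away from gene starts. Within 3 kb of a gene start were 1341 of the 8085 peaks, a share of 16.6% (15.8 to 17.4%), against 45% of the 34575 FLAG-ZMYND8 peaks in other protein-coding bodies. Midpoints fell in exons in 9.54% of peaks against 29.4%, and in coding exons in 2.7% against 10.3%. The minimum width was shared by 53.8% of peaks in the densely bound bodies and by 53.5% in the others. More than 3 kb from gene starts the shares were 56.4% (55.2 to 57.6%) and 66.7% (66 to 67.3%), and at gene starts they were 40.4% and 37.3%. Gene length enters these shares directly, since a long body has more sequence far from its start. The first intron of the canonical transcript took 20.8% of the length of the densely bound bodies and held 30.6% of the placements, where a placement is 1 peak in 1 body. In genes with 3 to 14 midpoints it took 20.4% of the length and held 34.7%.

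Along the gene, the peaks were spread more evenly than in genes with 3 to 14 midpoints. The first 10% of the body held 16.2% (15.4 to 17%) of the 8301 placements, against 27.9% (27.4 to 28.5%) in genes with 3 to 14 midpoints. Each later step of 10% held between 7.75% and 10.6%, and the median position was 42.7% of the way from the 5′ to the 3′ end, against 32.4% in genes with 3 to 14. This gap was present at every length, with shares between 13% and 17% in the densely bound bodies and between 26.3% and 29.4% in genes with 3 to 14 midpoints over 5 classes of length. The difference was not tested, and the number of peaks that the rule asks for moves with it. A single peak near the start is a larger share of a median of 4 midpoints than of a median of 20. With peaks within 3 kb of the own 5′ end not counted, 311 bodies reached 15 midpoints. Their first 10% held 10.8% of placements. Presence at the 5′ end was alike, since 75% (70.3 to 79.2%) of densely bound bodies and 77% (75.8 to 78.1%) of genes with 3 to 14 had a FLAG-ZMYND8 midpoint within 3 kb of it.

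**Figure D4:**
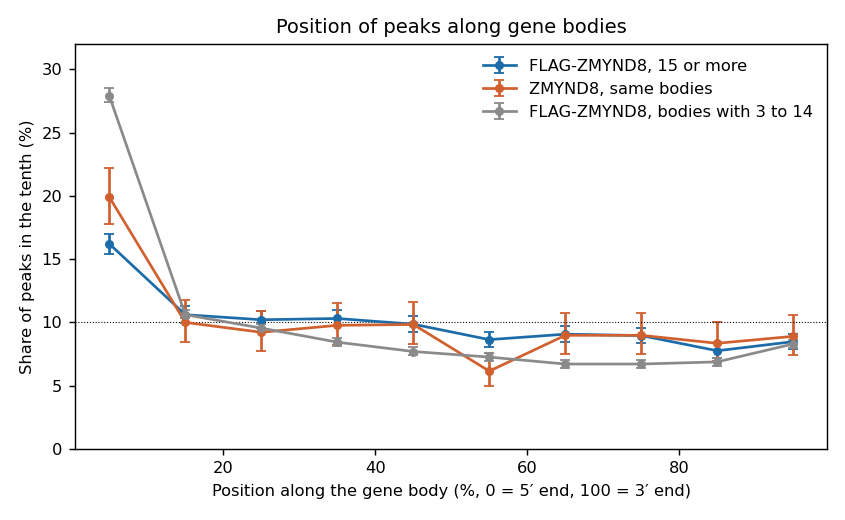
Share of peak placements in each step of 10% from the 5′ end to the 3′ end of the gene body, with 95% Wilson intervals, for FLAG-ZMYND8 and ZMYND8 in the 364 densely bound bodies and for FLAG-ZMYND8 in genes with 3 to 14 midpoints. The dotted line marks an even spread at 10%. The first step holds 16.2%, 19.9% and 27.9% in that order.

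Single genes departed from this average in both directions. The fullest 10% of a body held a median of 27.4% of its midpoints, and in 10 of the 364 genes it held over 50%. That fullest stretch was the first 10% in 114 genes and the last in 28. PRDM16, which encodes a zinc finger regulator of cell fate, had none of its 42 midpoints in the first 10% and 12 in the last. FAT3, an atypical cadherin gene, had 12 of its 18 in the last 10%, after a stretch of 392.7 kb without one. ROR1, a receptor of Wnt signalling, had 10 of its 23 in the first 10%. Neighbouring midpoints lay a median of 3485 bp apart, with quartiles of 1290 and 10926 bp, and 73.2% of the 7937 gaps were at most 10 kb.

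ZMYND8 midpoints lay in nearly all densely bound bodies. They were found in 347 of the 364, a share of 95.3% (92.6 to 97.1%), against 37.5% of all protein-coding genes and 63% (61.7 to 64.3%) of the genes with 3 to 14 FLAG-ZMYND8 midpoints. Longer bodies have more room for a peak, so the comparison was also made within classes of length. Among bodies of 100 to 200 kb, 112 of 114 densely bound bodies held a ZMYND8 midpoint, or 98.2% (93.8 to 99.5%), against 51.4% (49.3 to 53.6%) of the other 2048. Over 400 kb the shares were 95.8% (88.5 to 98.6%) and 55.9% (51.2 to 60.5%). The intervals did not overlap in any of the 5 classes of length, which is a description and no test. The other bodies include those without any FLAG-ZMYND8 midpoint, 16.9% of all genes of 100 to 200 kb and 25% of those over 400 kb. At the threshold the shares were alike, 85.7% at exactly 15 FLAG-ZMYND8 midpoints and 88.7% at exactly 14. At least 5 ZMYND8 midpoints were present in 104 of the 364 bodies, 28.6%, and in 0.789% of the genes with 3 to 14.

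**Figure D5:**
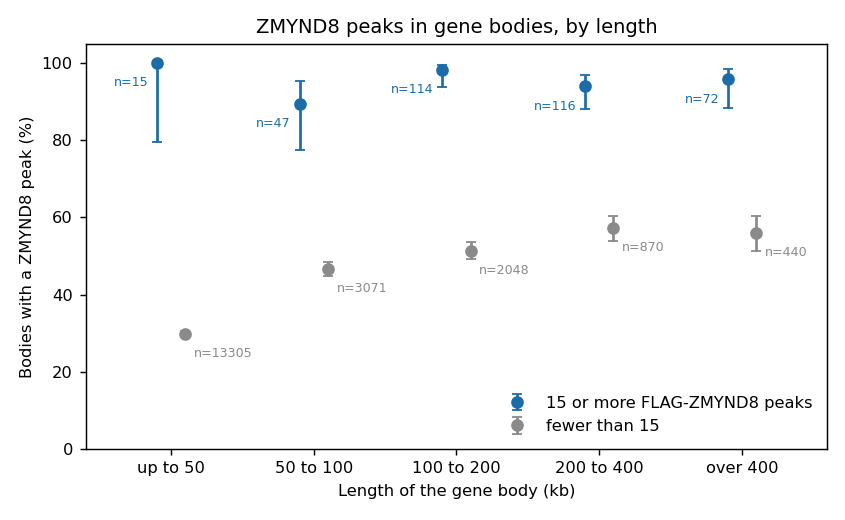
Share of gene bodies that hold at least 1 ZMYND8 peak midpoint, by class of body length in kb, for bodies with 15 or more FLAG-ZMYND8 midpoints and for bodies with fewer, with 95% Wilson intervals and the number of genes beside each point. The densely bound bodies lie between 89.4% and 100.0%, and the other bodies, which include those with no FLAG-ZMYND8 midpoint, between 29.7% and 57.2%.

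The ZMYND8 midpoints in these bodies also lay mostly inside the gene. Of their 1271 placements, 19.9% (17.8 to 22.2%) fell in the first 10% of the body, against 39.7% (38.4 to 41.1%) in genes with 3 to 14 FLAG-ZMYND8 midpoints. A ZMYND8 midpoint within 3 kb of the 5′ end was present in 32.4% (27.8 to 37.4%) of densely bound bodies and in 34.4% (33.1 to 35.6%) of genes with 3 to 14. One farther inside than 3 kb was present in 91.8% (88.5 to 94.2%) and 41.1% (39.8 to 42.5%). In the 5 classes of length the inner share ran from 87.2% to 95.8% in densely bound bodies and from 33.3% to 60% in genes with 3 to 14. The 2 sets of genes thus differed by more inside the body than at its 5′ end, a difference that was not tested. Only 6.14% of FLAG-ZMYND8 placements in densely bound bodies lay within 3 kb of the 5′ end, so the rule chose these genes mainly by inner peaks.

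GMDS held the most ZMYND8 midpoints of all protein-coding genes, 20, followed among densely bound genes by GSE1 with 15 and PRDM16 with 14. BCOR, an X-linked gene for a Polycomb-type corepressor, held 12 beside 33 FLAG-ZMYND8 midpoints. SIPA1L2 and RAI1 both held 11. No densely bound body held more ZMYND8 than FLAG-ZMYND8 midpoints, and the median number of ZMYND8 midpoints was 3, with quartiles of 2 and 5. Over the 364 genes, Spearman's rho between the numbers of FLAG-ZMYND8 and ZMYND8 midpoints was 0.411 and Pearson's r was 0.539. Both lists come from the same cell line and share its base composition and mappable sequence, so these values are a description of the lists.

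Of the 364 densely bound bodies, 17 held no ZMYND8 midpoint, and some of these are named here. SKI, a corepressor of TGF-beta signalling, held 28 FLAG-ZMYND8 midpoints in 82.8 kb and no ZMYND8 midpoint. All 28 lay in its first intron, which took 73.2 kb of the 82.8 kb. ROR1 held 23, JMJD1C, of the H3K9 demethylase family, held 21, and BTRC, an F-box subunit of a ubiquitin ligase, held 19. With 1 list per target, a count of 0 says only that no peak was called.

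Few FLAG-ZMYND8 peaks of these bodies lay on a ZMYND8 peak, while a larger share of the fewer ZMYND8 peaks lay on a FLAG-ZMYND8 peak. A FLAG-ZMYND8 peak overlapped a ZMYND8 peak by at least 1 bp in 574 of 8085 cases, 7.1% (6.56 to 7.68%), below the 10.7% of all FLAG-ZMYND8 peaks and the 11.9% (11.5 to 12.2%) of those in other protein-coding bodies. Seen from the other list, 502 of the 1246 ZMYND8 peaks in densely bound bodies overlapped a FLAG-ZMYND8 peak, 40.3% (37.6 to 43%), against 43.6% (42.5 to 44.6%) in other bodies. In 91 of the 364 genes no such overlap occurred.

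Against other protein-coding bodies, the direction for FLAG-ZMYND8 peaks turned more than 3 kb from gene starts and was kept at gene starts. More than 3 kb from any gene start, 383 of 6744 FLAG-ZMYND8 peaks in densely bound bodies overlapped a ZMYND8 peak, 5.68% (5.15 to 6.26%), against 4.49% (4.21 to 4.8%) in other bodies. Over all distal FLAG-ZMYND8 peaks it was 5.17% (4.96 to 5.4%), an interval that overlaps that of the densely bound bodies. For ZMYND8 peaks the distal shares were 35.6% (32.6 to 38.7%) and 25.2% (23.7 to 26.7%). At gene starts the FLAG-ZMYND8 shares were 14.2% (12.5 to 16.2%) and 20.9% (20.3 to 21.5%). Width differed in the distal comparison, as given above. Distal peaks at the minimum width gave 2.21% and 1.54% whereas wider peaks gave 10.2% and 10.4%, and only the intervals of the latter pair overlapped. Over all distal FLAG-ZMYND8 peaks these shares were 1.89% at the minimum width and 11.1% for wider peaks. A body with more FLAG-ZMYND8 peaks also offers a ZMYND8 peak more places to overlap, and none of these differences was tested.

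In single genes the overlap ranged from none of the peaks to 45%. BMF had the highest share, with 9 of its 20 FLAG-ZMYND8 peaks, 45%, on a ZMYND8 peak, and all 7 of its ZMYND8 peaks on a FLAG-ZMYND8 peak. HOXC4 followed with 11 of 27, or 40.7%, then the ZMYND8 gene with 6 of 17, or 35.3%, the early B-cell factor gene EBF2 with 6 of 20, or 30%, and FAT3 with 5 of 18, or 27.8%. GSE1, with the most peaks, had 6 of 134, or 4.48%. Coding exons were reached by 6 of the 17 peaks in the ZMYND8 gene, and the cells also carried the ZMYND8 coding sequence as a transgene, whose part in these peaks was not tested.

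Groups of chromatin and signalling genes were followed across the set. Of 12 lysine acetyltransferases, 2 were densely bound. CREBBP, which acetylates H3 tails, held 20 FLAG-ZMYND8 midpoints in 155.7 kb, 18 of them more than 3 kb from any gene start, and 1 ZMYND8 midpoint, with no overlap between the lists. KAT6B held 26 and 4. Of 26 lysine methyltransferases the densely bound were PRDM16 and MECOM, with 42 and 27 FLAG-ZMYND8 midpoints, and of 19 lysine demethylases found in the annotation JMJD1C and KDM4B, with 21 and 17. These shares of 16.7%, 7.69% and 10.5% stand beside 1.81% of all protein-coding genes, but the lists had median lengths of 118.2, 57.5 and 92.2 kb against 27.3 kb over all genes.

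Corepressors and chromatin complexes gave counts that are read beside the 1.81% of all protein-coding genes. Of 24 corepressors and class II histone deacetylases, 5 were in the set, 20.8%. Among them were CTBP2 with 50 FLAG-ZMYND8 midpoints, BCOR with 33, HDAC4 with 20 and TLE3 with 17, and each of these held between 4 and 12 ZMYND8 midpoints. None of 15 NuRD subunits was densely bound, although all 15 held a FLAG-ZMYND8 midpoint, with a median of 5. Over all protein-coding genes the median was 1, and 43.2% of the genes up to 50 kb held none. The NuRD subunits had a median length of 44.4 kb, below the 54.5 kb of the corepressors, and the difference between the lists was not tested. None of 14 Integrator subunits and 1 of 27 SWI/SNF subunits was densely bound, the latter being ARID1B with 34 midpoints. Of 18 genes for ZMYND8, its relatives and other bromodomain proteins, 3 were in the set, among them ZMYND8 with 17 and BPTF with 16.

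Developmental transcription factors had the highest share of the lists. Of 29 genes for NFI, TCF/LEF, E-protein, ZEB, GLI and similar factors, 11 were densely bound, 37.9%, against 1.81% of all protein-coding genes and 11.8% of those of 200 to 400 kb, the class that holds the list's median length of 212.1 kb. All 29 held a FLAG-ZMYND8 midpoint, while 16.7% of all protein-coding genes of 200 to 400 kb held none. NFIA held 52 midpoints, NFIX 41, NFIB 20 and NFIC 19, so that the whole nuclear factor I family was in the set. Others were TCF7L2, an effector of Wnt signalling, with 41 midpoints, ZFHX3 with 40, the Hedgehog effector GLI2 with 39, FOXP1 with 26, RUNX1 with 25 and GLI3 with 16. Per 10 kb the densely bound genes of the list ran from 0.205 in RUNX1 to 3.97 in NFIX. The list was written with earlier results of these data known and is no independent evidence.

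Receptors and signalling genes were also present. Of 39 nuclear receptors, with a median length of 85.6 kb, RXRA with 24, ESRRB with 22 and RARA with 18 FLAG-ZMYND8 midpoints were in the set, a share of 7.69%. Of 35 Notch, Wnt and Hedgehog components, with a median length of 36.3 kb, MAML3 with 22 and LRP5 with 17 were in it, a share of 5.71%. Both stand beside 1.81% of all protein-coding genes. The 20 receptor-type tyrosine phosphatases had a median length of 189.7 kb and 1 densely bound gene, PTPRG, and the 10 calcium channel alpha 1 subunits had a median length of 182.9 kb and none, beside 5.27% of all genes of 100 to 200 kb.

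The sequence around the peaks was rich in GC compared with the rest of the same bodies. In 200 bases around the midpoint, the median GC content was 56.5%, with quartiles of 52.5% and 60.5%, against 44% in 473365 windows of 200 bases that tile the densely bound bodies and held no FLAG-ZMYND8 peak. The median number of CG dinucleotides was 5 against 2 in those windows. Peaks in other protein-coding bodies had 59% and 7, and the difference was smaller for peaks more than 3 kb from a gene start, which had 56% and 4 in densely bound bodies and 56.5% and 5 in others. GC content can also affect how well DNA is amplified and sequenced, and its part in the peak calls was not tested.

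Short motifs were searched on both strands, and a window counted once however many matches it held. The GC box GGGCGG, which itself holds a CG, lay in 14.7% (13.9 to 15.4%) of windows at the peaks of densely bound bodies, in 23.1% of those in other bodies and in 4.03% of tiled windows. More than 3 kb from gene starts the shares at peaks were 12.7% (11.9 to 13.5%) and 15.3% (14.8 to 15.9%). The AP-1 motif TGANTCA was less common at the peaks than in tiled windows, 4.44% (4.01 to 4.91%) against 5.98%. At peaks in other bodies it lay in 3.22% (3.04 to 3.41%). The E-box CACGTG lay in 3.98% at the peaks, 3.98% at peaks in other bodies and 2.56% of tiled windows. For the ETS motif CCGGAA these shares were 3.67%, 5.71% and 1.7%. More than 3 kb from gene starts, densely bound and other bodies had AP-1 at 4.52% and 3.72% of peaks and ETS at 3.05% and 3.54%. Peaks that overlapped a ZMYND8 peak had a median GC content of 60% and the GC box in 22.8% (19.6 to 26.4%), against 56% and 14% (13.3 to 14.8%) for those that did not. Gene starts were not set apart in this comparison. Within 3 kb of one lay 191 of the 574 overlapping peaks, and 1341 of all 8085. Among those 1341 the GC box lay in 24.7%. The E-box and ETS motifs also hold a CG, and the AP-1 motif does not. Median GC content was 56.5% at the peaks and 44% in tiled windows. The part of base composition in the motif shares was not tested. A match describes the letters in the window and does not show that a factor was bound.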

How the data were processed

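ChIP-seq was carried out in HEK293 cells with antibodies to FLAG and to ZMYND8, with 2 replicates each. Reads were aligned by the authors to hg19 (BWA-MEM), profiles were made with HOMER, and the authors deposited 1 peak list per target. Peak-calling settings and how replicates were combined are not given in the sources used here. The deposited score was 1 for all peaks and was not used, and start and end give each peak. Rows were converted to positions counted from 1, and the midpoint placed a peak in a body. Gene bodies, exons and canonical transcripts were taken from GENCODE release 44 mapped to GRCh37, the build of the lists, and 64486 annotated genes gave the gene starts. Overlap between lists meant at least 1 bp.

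The genes and the 13 gene lists were chosen with earlier results of these data known. The genes named are those with the most midpoints, the most per 10 kb, the most and fewest ZMYND8 midpoints, the highest overlap, the extreme lengths, those at the threshold and the list members, and a few that the rule selects are not reported here. No test was made, since each target has 1 list, and shares carry 95% Wilson intervals. The functions were tested on simulated intervals. Samples of histone H3 acetylation and of input DNA were not used here. Alternatives changed the minimum count, the peaks or bodies admitted and the overlap required. Scripts ran in Python 3.11.15 with pysam 0.24.0, pandas 2.3.3 and numpy 2.4.6, and figures were drawn in matplotlib 3.10.9.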

Additional observations from a re-analysis of the deposited data

How the results depend on the processing

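Of 58 alternative values, 32 stayed close to the reported ones and 26 moved. With a minimum of 10 midpoints, 838 genes and 13300 peaks were selected, 89.4% of the bodies held a ZMYND8 midpoint, 18% of placements lay in the first 10% and 19.5% of peaks lay near a gene start. With a minimum of 20 these were 186 genes, 5240 peaks, 97.8% of bodies and 15% near a gene start. With only FLAG-ZMYND8 peaks above the minimum width, 68 genes with 1337 peaks were selected, at a median of 0.862 per 10 kb, with an overlap of 13.2%, 98.5% of bodies with a ZMYND8 midpoint and 20% of peaks near a gene start; the share at the minimum width then has no value by construction. Bodies that overlap no other protein-coding body gave 242 genes and 14.6% near a gene start. Leaving out peaks within 3 kb of the body's own 5′ end gave an overlap of 6.45%, 10.8% in the first 10%, 11% near a gene start and 55.1% at the minimum width. A reciprocal overlap of 50% gave 2.8%. With only ZMYND8 peaks above the minimum width, the overlap was 4.72% and 72.5% of bodies held one. Bodies of the canonical transcript, an alternative chosen after seeing the data, gave an overlap of 6.49% and 14.6% near a gene start. No paired analysis was possible because each target has a single list without replicates, so leaving out a replicate could not be done either. Depth is unknown, so the absence of a peak does not show the absence of binding.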

Other observations

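Densely bound genes were unevenly spread over chromosomes. They made up 4.45% of the protein-coding genes of chromosome 10, 33 of 742, and these bodies held 21.6% of the FLAG-ZMYND8 peaks of that chromosome. Chromosome 17 followed with 38 of 1189 genes, 3.2%, among them HOXB3, HOXB7, SREBF1, RAI1 and MSI2. Chromosome 20, which carries the ZMYND8 gene, had 3 of 547, 0.548%, and the X chromosome 2 of 869, 0.23%, of which BCOR is one. Copy number, which is altered in HEK293, was not measured here, and its part in these shares was not tested.

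Some densely bound genes adjoin. SREBF1 and RAI1, which partly overlap on chromosome 17, held 18 and 27 FLAG-ZMYND8 midpoints and 2 and 11 ZMYND8 midpoints. Of the 364 bodies, 27 overlapped another densely bound body, and 204 of the 8085 peaks lay in more than 1 of them.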
